A study of Mus musculus with 6 samples.

Results

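The AP-1 and immediate early genes examined here were Fos, Fosb, Fosl1, Fosl2, Jun, Junb, Jund, Atf3, Egr1 and Ier2. They were chosen by symbol, as the 10 rows with these names among the 23420 genes of the deposited table. RNA was sequenced from whole mouse uteri collected at PPD 4.5, day 4.5 of the pseudopregnancy that follows mating with a vasectomized male, in 6 libraries. The question behind the comparison was how the uterine transcriptome differs when FOXO1, a forkhead transcription factor, is ablated in cells that express the progesterone receptor. The controls were Foxo1f/f females, whose Foxo1 alleles are flanked by loxP sites but intact, and the mutants were PgrCre/+ Foxo1f/f females, termed Foxo1d/d. Each genotype had 3 libraries. All females were 8 weeks old and on the C57BL/6J strain, and each library was made from pooled RNA of 2 mice. The Cre recombinase is driven by the progesterone receptor gene, so deletion takes place in every uterine compartment that expresses the receptor and also outside the uterus, for example in the pituitary and the ovary. The controls carried no Cre, so the effect of the Cre allele and that of Foxo1 loss cannot be told apart.

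Immediate early genes are transcribed within minutes of a growth factor, hormone, calcium or stress signal without new protein synthesis, and their mRNAs are short-lived. Proteins of the FOS and JUN families pair through leucine zippers to form AP-1, a transcription factor that binds the TPA response element, and related proteins of the ATF family join the same dimers. In the uterus some of these genes are known to respond to estrogen, which induces Fos rapidly in the epithelium. FOSL2 is known to share genomic sites with the progesterone receptor in endometrial stromal cells.

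The deposited values were mean counts per genotype, so every value below is the authors' mean over 3 libraries or the read sum that it implies. The sums over all genes were 78375043 reads in Foxo1f/f and 81773890 in Foxo1d/d. Ratios were taken after dividing each mean by its genotype's total, and are given as Foxo1d/d over Foxo1f/f. Each ratio has a 95% Clopper-Pearson interval from the summed reads, called the counting interval here, which covers counting error and not the spread between pools. That spread cannot be computed from means, so no difference below was tested against it. Foxo1 itself averaged 3941 reads per Foxo1f/f library and 1456 per Foxo1d/d library, which was 2.82-fold lower (log2 ratio -1.50, counting interval -1.55 to -1.45). The remaining reads include those of undeleted exons and of cells without Cre activity, which cannot be told apart.

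Fosb, a FOS family subunit that is made in a full-length and a truncated form, averaged 70.7 reads per Foxo1f/f library and 142 per Foxo1d/d library. Its level was 1.93-fold higher in Foxo1d/d (counting interval 1.63 to 2.28). Fosb was the member that differed most between the genotypes, although it was also among the least abundant. Fos, the prototype of the family and the subunit of the classical FOS-JUN dimer, averaged 376 reads per Foxo1f/f library and 539 per Foxo1d/d library. The Fos ratio was 1.37 (counting interval 1.27 to 1.48), so Fos was higher in Foxo1d/d by less than 1.5-fold. Counts per gene do not separate the forms of Fosb, so the difference refers to their sum. These are levels in whole tissue, in which a change in the number of cells of a type and a change in RNA per cell cannot be told apart.

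Fosl2, which encodes FRA-2, a subunit without the strong transactivation domain of FOS, averaged 7709 reads per Foxo1f/f library and 7035 per Foxo1d/d library. Its ratio was 0.875 (counting interval 0.858 to 0.891). The most abundant FOS family mRNA was thus slightly lower where Fos and Fosb were higher. Fosl1, which encodes FRA-1, was close to absent, with 4 reads summed over the Foxo1f/f libraries and 6 over the Foxo1d/d libraries. The Fosl1 log2 ratio of 0.52 had a counting interval from -1.55 to 2.79, and a difference in either direction was not detectable at this depth. The annotated exons of Fosl1 share 1163 bases with those of Ccdc85b on the opposite strand. Whether counting used strand is not given in the sources used here, so the few Fosl1 reads are uncertain.

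Among the JUN family, Jun, the main activating partner of FOS, averaged 3093 reads per Foxo1f/f library and 2643 per Foxo1d/d library. It was 1.22-fold lower in Foxo1d/d (log2 ratio -0.29, counting interval -0.33 to -0.24), the lowest ratio of the members. Junb, a weaker activator that can restrain JUN, averaged 1457 reads per Foxo1f/f library and 1769 per Foxo1d/d library. Its ratio was 1.16 (counting interval 1.12 to 1.21), on the opposite side of equality from Jun. Jund, the subunit that is expressed most steadily in unstimulated cells, averaged 3703 reads per Foxo1f/f library and 4080 per Foxo1d/d library, a ratio of 1.06 (counting interval 1.03 to 1.08). The JUN family therefore did not move in a single direction, and each of its ratios lay within 1.5-fold. Jund shares 877 exon bases with Gm11175, an antisense transcript, whose reads cannot be told apart without strand.

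Atf3, a stress-induced partner of JUN that often represses its targets, averaged 271 reads per Foxo1f/f library and 279 per Foxo1d/d library. Its log2 ratio was -0.02 (counting interval -0.16 to 0.12), which includes equality. Egr1, a zinc finger factor induced through SRF and ELK proteins, averaged 1779 reads per Foxo1f/f library and 1676 per Foxo1d/d library, a ratio of 0.903 (counting interval 0.868 to 0.938). Ier2, an immediate early gene that encodes a small nuclear protein outside the AP-1 families, averaged 1265 reads per Foxo1f/f library and 1480 per Foxo1d/d library, a ratio of 1.12 (counting interval 1.07 to 1.17). Egr1 and Ier2, both outside the AP-1 families, thus had small differences in opposite directions.

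**Figure D1:**
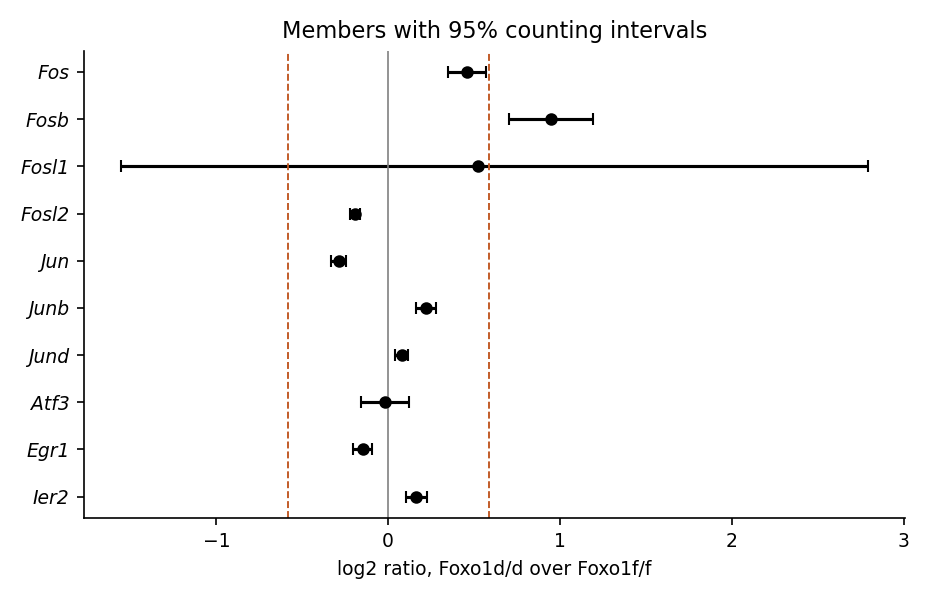
Log2 ratio (Foxo1d/d relative to Foxo1f/f) for each member (points), with 95% counting intervals (bars), equality (solid line) and 1.5-fold in either direction (dashed lines). The Fosb interval lies wholly beyond the 1.5-fold line, whereas the Fosl1 interval, from 10 reads in all, spans both lines.

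Of the 10 members, 9 averaged at least 10 reads per library across the genotypes and Fosl1 did not. Of these 9, 1 (Fosb) was over 1.5-fold higher in Foxo1d/d and 0 were over 1.5-fold lower. Among the 15696 genes that passed the same minimum, 875 (5.57%) exceeded that fold on the higher side and 569 (3.63%) on the lower side. With the limit at 25% above equality, 2 members, Fos and Fosb, lay beyond it on the higher side, as did 12.7% of all genes. With a limit of 2-fold, 0 members did, against 2.1% of all genes. The counting interval lay wholly above equality for 5 members, Fos, Fosb, Junb, Jund and Ier2, and wholly below it for 3, Fosl2, Jun and Egr1. In all genes these shares were 36.4% and 27.1%, so an interval that excludes equality was common at this depth. The median log2 ratio was 0.08 over the 9 members, 0.12 with Fosl1 included, and 0.02 over all genes that passed. The median size of the log2 ratio, regardless of sign, was 0.19 in the members and 0.14 in all genes. The members thus had a median close to that of all genes and differed in both directions.

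Genes with few reads spread more widely, and Fosb was one of them. Of the 1962 genes with 0.5 to 2 times the mean count of Fosb, 220 (11.2%) were over 1.5-fold higher in Foxo1d/d. The Fosb ratio exceeded that of 97.6% of all genes that passed the minimum, and the Fos ratio exceeded that of 91.9%. Jun lay at the other end, with a ratio above that of 10.6% of genes.

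**Figure D2:**
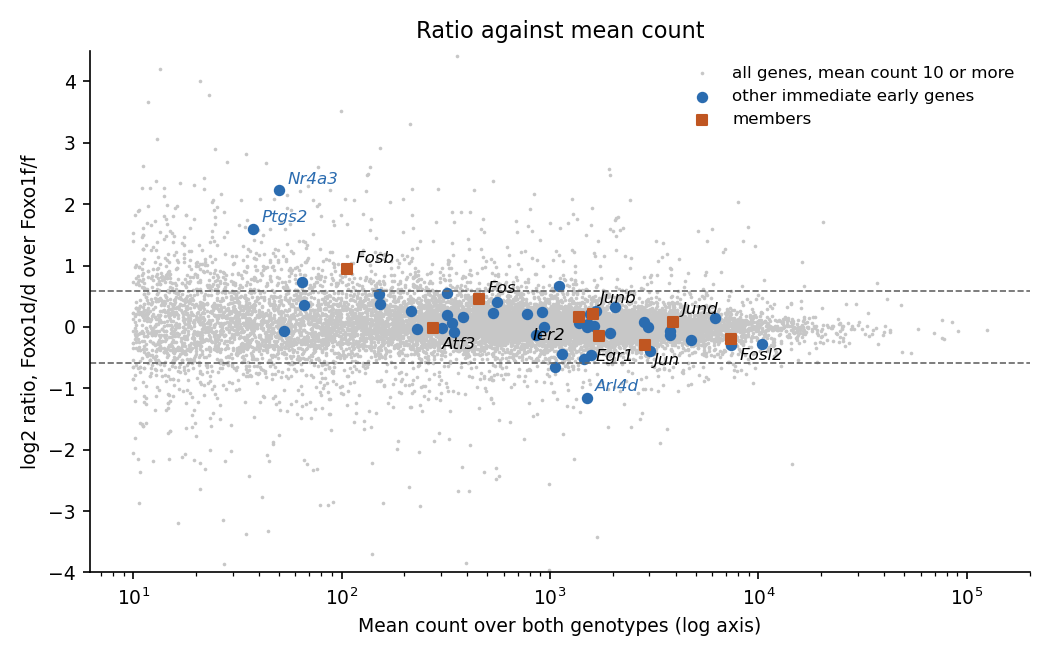
Log2 ratio, Foxo1d/d relative to Foxo1f/f (vertical axis), against the mean count over both genotypes (log axis) for genes averaging at least 10 reads (grey), other immediate early genes (blue circles) and the members (orange squares), with dashed lines at 1.5-fold. The members other than Fosb lie between the lines, and 14 grey genes fall outside the drawn range of -4 to 4.5.

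Levels of different genes were compared per length, as reads per kilobase of annotated exon and 1000000 counted reads (RPKM). In Foxo1f/f, Jund had the highest level with 85.0 RPKM, followed by Fosl2 with 45.1 and Jun with 37.1. Ier2 followed with 31.8 RPKM and Junb with 30.8, and the 95% Poisson counting intervals of this pair overlapped. Egr1 had 15.2 RPKM, Fos 6.83, Atf3 4.82, Fosb 0.715 and Fosl1 0.0274. In Foxo1d/d the order was the same except in its middle, where Jun, with 30.4 RPKM, came after Junb with 35.9 and Ier2 with 35.7. The intervals of Junb and Ier2 overlapped again, and the Jun interval, 29.7 to 31.1 RPKM, lay below both.

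**Figure D3:**
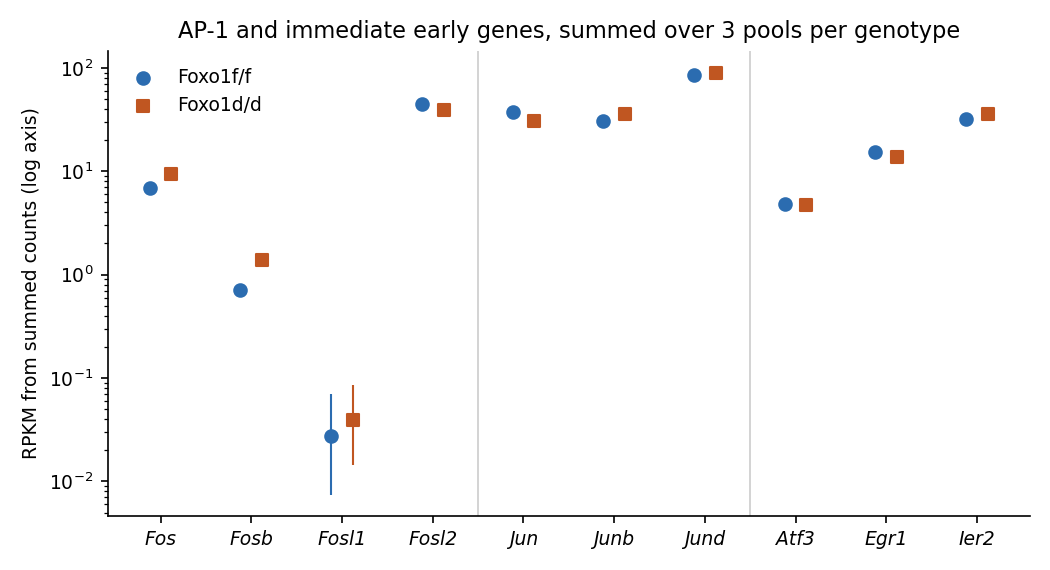
Level of each member in RPKM (log axis) in Foxo1f/f (blue circles) and Foxo1d/d (orange squares), with 95% Poisson counting intervals as vertical bars that are shorter than most symbols, and grey lines between the FOS family, the JUN family and the other members. Jund is highest in both genotypes and Fosl1 lowest.

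Within the FOS family, Fosl2 made up 85.6% of the summed RPKM in Foxo1f/f against 78.5% in Foxo1d/d. The share of Fos was 13.0% in Foxo1f/f against 18.6% in Foxo1d/d, and that of Fosb 1.36% and 2.74%. The family sum was 52.7 RPKM in Foxo1f/f against 50.3 in Foxo1d/d, so the higher Fos and Fosb levels stood beside a sum that was slightly lower. In the JUN family, Jund made up 55.6% of the summed RPKM in Foxo1f/f against 57.5% in Foxo1d/d. Jun had a share of 24.3% in Foxo1f/f against 19.5% in Foxo1d/d, while Junb had 20.2% and 23.0%. With the whole RefSeq span of Jund, 2878 bases, in place of its 1668 GENCODE exon bases, a choice made after seeing the data, its share would be 42.0% in Foxo1f/f against 44.0% in Foxo1d/d. Its level would then be 49.2 RPKM in Foxo1f/f against 52.0 in Foxo1d/d, still the highest of the members. With the GENCODE length, the JUN family sum was 152.9 RPKM in Foxo1f/f against 156.0 in Foxo1d/d. These shares describe mRNA and not the amounts of AP-1 dimers.

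The genomic spans of the members, which had no part in their choice, ranged in RefSeq from 1522 bases (Ier2) to 21369 bases (Fosl2). Their median was 3568 bases, against 22746 bases over 15368 genes that passed the minimum and had an entry. Jun, Junb, Jund and Ier2 have 1 exon each in GENCODE, so reads from their unspliced and mature RNA cannot be told apart.

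The RefSeq promoter table (GRCm38.p6) had an entry for 7 members, Fos, Fosb, Fosl2, Jun, Junb, Jund and Atf3, and none for Fosl1, Egr1 and Ier2. The 250 bases before each start were searched on both strands for TGACG, the core of the cAMP response element (CRE), for TGACNTCA, which covers the full CRE and the variant known from Jun, and for the AP-1 element TGANTCA. The forkhead core GTAAACA, the EGR element GCGNGGGCG and the CArG box bound by SRF were searched as well. The full CRE holds the core, so a full CRE counts under both. The sequences are shown for Fos, Fosb and Junb, which had the highest ratios among the members that passed the minimum count, and for Jun, which had the lowest, 5′ to 3′ on the gene's strand with matches in capitals. The 73 bases of the Fosb window nearest the start lie inside the gene as RefSeq annotates it, and for Fosb a stretch of 30 bases from that inner part, which holds the matches, is shown.
Fos (chr12:85473640-85473889, plus strand): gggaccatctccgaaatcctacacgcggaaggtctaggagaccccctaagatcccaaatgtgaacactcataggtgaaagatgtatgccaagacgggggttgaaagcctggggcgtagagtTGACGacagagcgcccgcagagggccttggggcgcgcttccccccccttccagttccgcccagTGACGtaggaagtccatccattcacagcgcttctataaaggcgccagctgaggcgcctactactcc
Junb (chr8:84978749-84978998, minus strand): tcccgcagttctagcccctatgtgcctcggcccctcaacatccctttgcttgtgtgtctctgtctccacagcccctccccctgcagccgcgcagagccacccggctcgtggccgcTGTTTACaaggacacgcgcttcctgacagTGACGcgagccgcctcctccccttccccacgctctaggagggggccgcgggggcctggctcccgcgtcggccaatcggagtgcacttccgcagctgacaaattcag
Jun (chr4:95052223-95052472, minus strand): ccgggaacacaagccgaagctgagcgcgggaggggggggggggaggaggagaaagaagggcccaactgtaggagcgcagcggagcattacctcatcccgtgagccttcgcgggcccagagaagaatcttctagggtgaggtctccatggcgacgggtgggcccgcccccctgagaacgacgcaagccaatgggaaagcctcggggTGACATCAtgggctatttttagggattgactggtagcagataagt
Fosb (chr7:19310081-19310110, minus strand): gcgggTGACGcaagcGCGGGGGCGggtccc

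The CRE core was present in 4 of the 7 windows, those of Fos, Fosb, Junb and Atf3, and in 17.8% of all 32851 promoter windows in the table. Fos held it at -129 and at -66, Fosb at -60 and Junb at -106 from the start. Unlike those of Fos and Junb, the Fosb match lies inside the annotated gene. Atf3, which also held a CRE core, had a ratio near equality. The motifs were chosen after the ratios were seen, and a link between a motif and the ratios was not tested. Jun held TGACATCA at -45, the 1 match to TGACNTCA among the 7 windows, against 7.49% of all windows. GTAAACA was matched on its reverse strand in the Junb window, as TGTTTAC at -135, and in 3.17% of all windows. The EGR element was found in the windows of Fosb, again inside the annotated gene, and Fosl2, and in 4.7% of all windows. TGANTCA was found in 0 of the 7 windows and 6.75% of all, and the CArG box in 0 of the 7 and 1.47% of all. Sequence outside the windows was not searched, and Fosl1, Egr1 and Ier2 had no window. These counts therefore do not show that a member lacks either element. The matches describe letters in these windows, and binding was not measured. The Jund window was set at the RefSeq start, and that span, 2878 bases, exceeds the 1668 GENCODE exon bases. The start of Jund may thus differ between the annotations.

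The other immediate early genes, a list of 45 from outside the members, showed a wider range. Of these, 44 passed the minimum count, 4 were over 1.5-fold higher in Foxo1d/d and 2 over 1.5-fold lower. In all genes the shares past that fold were 5.57% on the higher side and 3.63% on the lower side. The list was not tested against these shares. Their median log2 ratio was 0.06, against 0.02 in all genes. Nr4a3, an orphan nuclear receptor, had 51 reads in Foxo1f/f against 249 in Foxo1d/d, a ratio of 4.68 (counting interval 3.45 to 6.46). Ptgs2, the inducible cyclooxygenase of prostaglandin synthesis, had 54 reads in Foxo1f/f against 171 in Foxo1d/d, a ratio of 3.04 (counting interval 2.22 to 4.20). Both were scarce in the control uterus and had several times as many reads in the mutant. Areg, an EGF receptor ligand, was 1.65-fold higher, with mean counts of 47.3 in Foxo1f/f against 81.7 in Foxo1d/d. Gadd45g, a growth arrest gene, was 1.59-fold higher, with mean counts of 834 and 1385.

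On the lower side, Arl4d, a small GTPase of the ARF family, averaged 2047 reads per Foxo1f/f library and 960 per Foxo1d/d library, which was 2.22-fold lower (log2 counting interval -1.22 to -1.09). Klf2, a Kruppel-like factor of endothelium and lymphocytes, averaged 1271 reads per Foxo1f/f library and 846 per Foxo1d/d library and was 1.57-fold lower. Gadd45a and Gem, a growth arrest gene and a small GTPase, had log2 ratios of -0.52 and -0.46. The immediate early program thus held genes on both sides, with 27 of the 44 above equality and 17 below it, or 23 and 21 with TMM scaling.

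Among 18 further bZIP factors that can pair with AP-1 subunits or share their sites, 2 were over 1.5-fold higher in Foxo1d/d and 0 over 1.5-fold lower. With shares of 5.57% and 3.63% in all genes, these counts are close to what a list of this length would hold. Their median log2 ratio was -0.02. The 2 were Batf, with mean counts of 168 in Foxo1f/f against 277 in Foxo1d/d, and Batf3, with 90.0 and 143. With TMM scaling or with the median gene set to equality, Batf3 fell short of 1.5-fold and 1 was left. Both are partners of JUN proteins known mainly from lymphoid and dendritic cells. Jdp2, a repressive JUN partner, had a log2 ratio of 0.42. The lowest ratios were those of Maff (-0.43), Nfe2l1 (-0.43), Mafk (-0.29) and Atf7 (-0.26) on the log2 scale.

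The kinases and SRF cofactors that act upstream of immediate early transcription differed little. Of 19, 0 were over 1.5-fold in either direction, and the median log2 ratio was -0.01. In all genes 5.57% were past that fold on the higher side and 3.63% on the lower, so 0 in so short a list is close to those shares. The median size of the log2 ratio, regardless of sign, was 0.04 in this list, against 0.14 in all genes. All genes include many with fewer reads, which spread more widely, and these medians were not matched on count. Map2k2, a MEK kinase, had the highest log2 ratio (0.16), and the MAP kinases Mapk7 (0.07) and Mapk8 (0.04) were also among the highest. The lowest were Mkl2, an SRF coactivator (-0.31), Elk4 (-0.28) and Elk1 (-0.12), which are SRF partners, and the kinase Braf (-0.20). In the list of 10 genes of feedback and protein turnover, 0 passed 1.5-fold, again close to the shares in all genes. Its median log2 ratio was 0.02, or -0.01 with TMM scaling. Dusp10, a phosphatase of JNK and p38, had a log2 ratio of 0.44, and the other high values were Dusp8 (0.15), Nab2, a corepressor of EGR proteins (0.14), and Dusp4 (0.11). Fbxw7, a ubiquitin ligase subunit that targets JUN, was lowest (-0.24), followed by Itch, another ligase that targets JUN proteins (-0.03), the signalling inhibitor Spry2 (-0.0031) and Rfwd2, the COP1 ligase (0.0026). These mRNA levels do not report the activity of the kinases.

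Of 24 genes known as AP-1 targets, 20 passed the minimum count, 4 of them over 1.5-fold higher in Foxo1d/d and 0 over 1.5-fold lower. Over all genes 5.57% were past that fold on the higher side and 3.63% on the lower side. Sprr1a, among the 4, passed the minimum only through Foxo1d/d, with mean counts of 2.33 in Foxo1f/f against 39.3 in Foxo1d/d. The list's median log2 ratio was 0.17, against 0.02 in all genes. Sprr1a, a cornified envelope precursor, had 7 reads in Foxo1f/f against 118 in Foxo1d/d, which gave 4.01 as log2 ratio (counting interval 2.93 to 5.36). Krt17, a keratin of activated epithelium, had 77 reads in Foxo1f/f against 244 in Foxo1d/d and was 3.04-fold higher. Both are also expressed in squamous epithelium, whose basal keratins Krt15, Krt5 and Krt14 had log2 ratios of 3.52, 2.61 and 2.08. Of the same marker list, Trp63 had 0.09 and Dsg3 had -1.25. The study's RNA isolation methods, written for mice after surgery, state that cervixes were discarded. The part of squamous cells in these values was not tested. The metallothioneins Mt2 and Mt1 were 1.72-fold and 1.58-fold higher, and both also respond to metals and glucocorticoids. Among the lowest log2 ratios were those of Plau (-0.14), Mmp9 (-0.10) and Plaur (0.04), which act in matrix turnover and fibrinolysis.

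**Figure D4:**
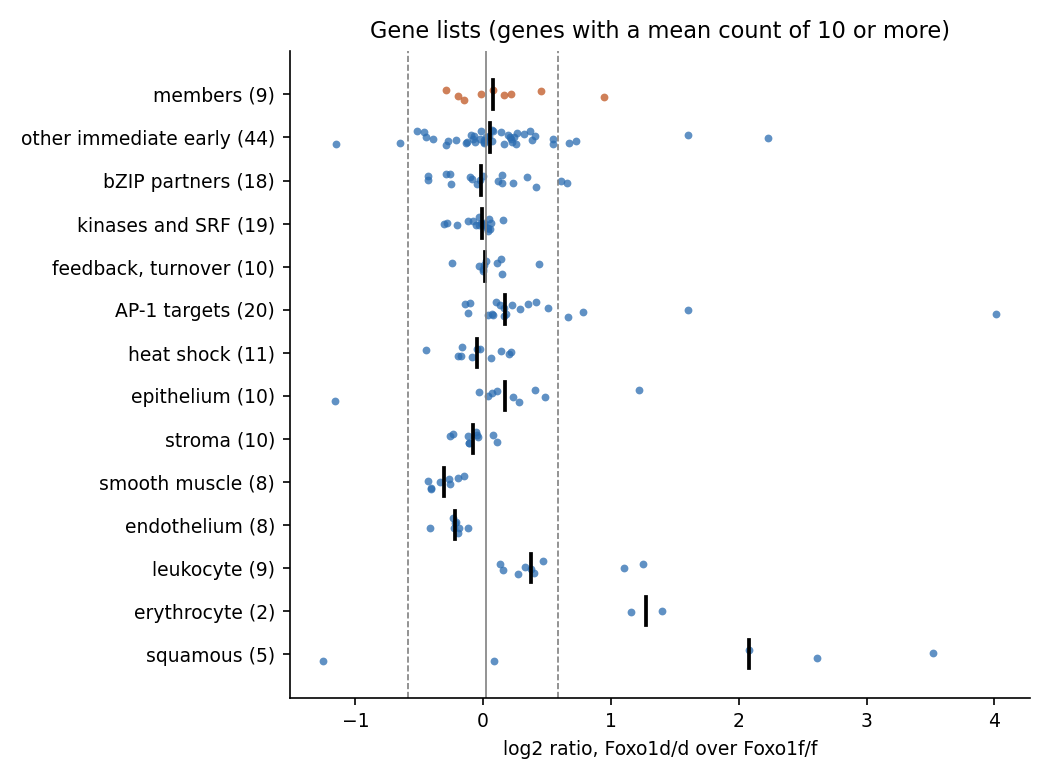
Log2 ratio, with Foxo1d/d relative to Foxo1f/f, for each listed gene averaging at least 10 reads (points, with the number of genes in brackets), list medians (black bars), the median of all genes (grey line) and 1.5-fold (dashed lines). The members and the kinases centre near the median of all genes, whereas the leukocyte, erythrocyte and squamous medians lie to the right and the smooth muscle and endothelial medians to the left.

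Immediate early genes can be induced while tissue is collected, and heat shock genes were therefore read beside them. Of 11 heat shock genes, 0 passed 1.5-fold, against 5.57% of all genes on the higher side and 3.63% on the lower side. Their median log2 ratio was -0.05. Hspa8, the gene of the list with the most reads, had a log2 ratio of -0.17, and the inducible Hspa1a had -0.45, the lowest of the list. Hspb1 (-0.20) and Hspa1b (-0.18) were also lower, and Hspe1 (0.22), Hspd1 (0.20), Hsp90aa1 (0.14) and Dnaja1 (0.07) were higher. The heat shock genes thus differed in both directions, with 4 of the 11 above equality and 7 below it. The part of tissue handling in the member values was not tested.

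The marker genes of several cell types differed between the genotypes alongside these genes. All 9 leukocyte markers that passed the minimum, of 10, had ratios above equality, with a median log2 ratio of 0.38 and a summed level, in reads per 1000000 counted reads (RPM), of 319 in Foxo1f/f against 391 in Foxo1d/d. Ptprc, the pan-leukocyte phosphatase and the list's most abundant gene, had a log2 ratio of 0.40, while S100a9 of neutrophils was 2.38-fold and Cd3e of T cells 2.14-fold higher. The B cell marker Cd79a had a log2 ratio of 0.47. The lowest were Cd68 (0.13), Csf1r (0.16), Emr1 (0.27) and Itgam (0.33), which mark macrophages and other myeloid cells. Of the erythrocyte markers, 2 passed, Beta-s and Alas2, with log2 ratios of 1.16 and 1.40. Beta-s, an adult beta globin and the most abundant, had mean counts of 1087 in Foxo1f/f against 2528 in Foxo1d/d. The list's summed level was 47.4 RPM in Foxo1f/f against 107.8 in Foxo1d/d. Hba-a1 and Hba-a2, which are near-identical copies, were listed at 0 in both genotypes, and reads shared by such copies may not have been counted.

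All 8 smooth muscle markers were below equality, with a median log2 ratio of -0.30 and a summed level of 7224 RPM in Foxo1f/f against 5829 in Foxo1d/d. Myh11, the smooth muscle myosin and the most abundant of them, had the lowest log2 ratio (-0.43), followed by Actg2 (-0.41), Lmod1 (-0.41) and Des (-0.34). Acta2 (-0.15), Cnn1 (-0.20), Smtn (-0.26) and Tagln (-0.27) were nearer to equality. All 8 endothelial markers were below equality as well, with a median of -0.22 and summed levels of 1700 in Foxo1f/f against 1436 in Foxo1d/d. Pecam1, the most abundant, had a log2 ratio of -0.22, and Vwf had the lowest (-0.41), followed by Emcn (-0.24) and Cdh5 (-0.22). Cldn5 (-0.12), Tek (-0.19), Tie1 (-0.20) and Kdr (-0.21) made up the rest. Contractile and vascular markers thus held smaller shares of the reads in Foxo1d/d.

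Stromal markers were close to equality, with 8 of 10 below it, a median log2 ratio of -0.08 and summed levels of 14797.5 RPM in Foxo1f/f against 14610.3 in Foxo1d/d. Col3a1, the most abundant, had a log2 ratio of -0.05, Pdgfra (-0.26) and Vim (-0.24) were lowest, and Nr2f2 and Hoxa10 had -0.12 and -0.11. The highest were Col1a1 (0.11), Col1a2 (0.08), Hoxa11 (-0.04) and Col3a1. Of the 10 epithelial markers, 8 were above equality, with a median of 0.17 and summed levels of 811 in Foxo1f/f against 950 in Foxo1d/d. Cdh1, the most abundant, had a log2 ratio of 0.11. Krt19 had 1.22, Krt8 0.48, Cldn3 0.41 and Krt7 0.28, whereas Krt18, Foxa2 and Epcam had -0.03, 0.04 and 0.07. The markers of uterine epithelium, stroma, muscle and vessels were all detected in both genotypes.

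Squamous markers were scarce, with a summed level of 8.64 RPM in Foxo1f/f against 22.6 in Foxo1d/d, and 5 of 6 passed the minimum. The basal keratins named beside Sprr1a and Krt17 had the highest ratios of the list. Krt5 had the most reads of the list over both genotypes. In Foxo1f/f, however, Trp63 with 271 reads and Dsg3 with 203 exceeded Krt5 with 111. Trp63, the transcription factor that defines the basal lineage, had 0.09, and the desmosomal cadherin Dsg3 had -1.25. The basal keratins and Trp63 thus differed in the size of their ratios. The part of these shifts in cell type markers in the values of the members and of the other listed genes was not tested.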

How the data were processed

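Libraries were made from poly(A)-selected RNA with the Illumina TruSeq protocol. The authors trimmed the reads, mapped them with STAR, removed duplicates with Picard and counted reads per RefSeq gene with HTSeq. Duplicate removal can lower the counts of short, abundant genes. The study's methods name mm10, whereas the submitters' processing notes name mm9, so gene coordinates of the counted features are not printed. The deposited table gives the mean count per genotype, treated here as an expected count because a mean need not be whole. Multiplied by 3, each mean was whole to within 1.05e-09, and these sums were used for intervals. Its columns of the authors' own edgeR comparison (fold change, p-value, FDR) and average abundance were not used.

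Counts of single libraries were not analysed here, so the planned edgeR test, leave-one-out fits and replicate block were not run. Means were divided by genotype totals without a pseudocount. Genes that averaged at least 10 reads across the genotypes were compared, and a gene was called when past 1.5-fold. Alternatives were median, upper quartile and TMM scaling (edgeR 4.0.16 on the summed counts), a pseudocount of 1, no filter, and limits of 25% above equality and of 2-fold. Exon lengths were unions over the GENCODE M21 basic annotation, whereas the authors counted on RefSeq genes, and the RefSeq span of Jund was tried as an added alternative. Listed genes were matched by symbol or by RefSeq synonym, and Hbb-bt was not matched. All members were named, with the 4 highest and 4 lowest ratios of each other list, the most abundant gene of the heat shock and marker lists, and Foxo1, and some genes that this rule names are not reported here. Members and lists were chosen with earlier results of these data known, and the motifs after the ratios were seen. Scripts ran in Python 3.11.15 with scipy 1.17.1 and were tested on simulated data.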

Additional observations from a re-analysis of the deposited data

How the results depend on the processing

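All 10 members kept the direction of their log2 ratio under median, upper quartile and TMM scaling and with a pseudocount of 1, and the 40 values so obtained stayed within their counting intervals. The scalings lowered each log2 ratio by at most 0.03, which left the medians of the lists on their side of equality except that of the feedback and turnover genes. Under these settings Fosb ranged from 0.92 to 0.95, Fos from 0.43 to 0.46 and Jun from -0.31 to -0.29. The count of members over 1.5-fold higher was 1 under each scaling, with the pseudocount and without a filter, but 2 with the limit at 25% above equality (12.7% of all genes) and 0 with a limit of 2-fold (2.1% of all genes), as follows from the limit itself. The median log2 ratio of the members was 0.079 with the filter and 0.122 without it, because Fosl1 then enters. No paired analysis was possible because the deposited values are means per genotype and carry no replicate numbers. Leaving out a replicate was not run for the same reason. Depth limits Fosl1 most, and the spread between pools was not measured here for any gene.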
